A study of Mus musculus with 10 samples.

Results

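The miR-181 family was followed in small RNA libraries of mouse splenic B-cells. Its members here are the 7 features of microRNA type named mmu-miR-181a-5p, mmu-miR-181b-5p, mmu-miR-181c-5p, mmu-miR-181d-5p, mmu-miR-181a-1-3p, mmu-miR-181a-2-3p and mmu-miR-181c-3p (the prefix for mouse is left out below except where levels are first given), out of 2015 microRNA features (1302 of them mature microRNAs) and 6968 small RNA features in all. The rule that picks them uses their names. All 7 passed the filter on low counts.

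A microRNA gene gives a hairpin transcript, and either side of the hairpin (the 5p and the 3p arm) can be cut out as a mature strand that guides silencing of messenger RNAs carrying matches to its seed, the bases 2 to 8. The miR-181 family is known for its abundance in thymocytes and B-cell precursors. There miR-181a tunes antigen receptor signalling and lymphocyte development, and miR-181b has been described as a regulator of AID, the deaminase that starts class switch recombination in activated B-cells.

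Cells were CD43- splenic B-cells (resting B-cells obtained by leaving out CD43-bearing cells) of 3 kinds of mice that share an inbred background. These were wt mice, mice lacking the 3'RR (the super-enhancer at the 3' end of the immunoglobulin heavy chain locus) and mice lacking Eµ (the intronic enhancer of the same locus, with its matrix attachment regions). All were young adults of either sex. Per the labels, cells were kept in culture for 2 days without stimulation or with LPS (bacterial lipopolysaccharide, a polyclonal activator of B-cells) at 5 µg/ml, whereas the published methods speak of cells taken before and after stimulation. If the latter holds for these libraries, LPS and culture cannot be told apart. Each library came from a pool of 2 mice, with 2 libraries per condition for wt and 3'RR-deficient mice and 1 per condition for Eµ-deficient mice. A replicate is thus a pool, and p-values measure the spread between pools.

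The 4 members cut from the 5p arm have one seed in common, which is why they are shown together. The seed is in capitals, and sequences are from RefSeq, build GRCm38.p6.
miR-181a-5p: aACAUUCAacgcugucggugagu
miR-181b-5p: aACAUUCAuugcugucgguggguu
miR-181c-5p: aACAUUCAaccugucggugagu
miR-181d-5p: aACAUUCAuuguugucggugggu
Of 1679 mature mouse microRNA names in the reference table, only these 4 carried the seed ACAUUCA. Counted from the 5' end, miR-181a-5p differed from miR-181b-5p by A9U, C10U and A21G and by the final base of the longer miR-181b-5p. miR-181b-5p and miR-181d-5p differed by C12U and by length, an edit distance of 2. miR-181a-5p and miR-181c-5p lay at an edit distance of 1.

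The 3p arms do not share that seed, and they tell the loci apart, since the 2 miR-181a genes give the same 5p strand but different 3p strands.
miR-181a-1-3p: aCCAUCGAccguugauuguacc
miR-181a-2-3p: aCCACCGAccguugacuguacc
miR-181c-3p: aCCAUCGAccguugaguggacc
miR-181a-1-3p and miR-181a-2-3p differed by U5C, inside the seed, and U16C. miR-181a-1-3p and miR-181c-3p had the same seed, CCAUCGA, and differed by U16G and U19G.

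The hairpins of both miR-181a genes are given because the ratio of their 3p arms changed with LPS. Mature arms are in capitals, and the hairpins are identical at 71.4% of aligned positions. The count table lists miR-181a-2-3p 3 nt downstream of the arm marked here, and miR-181a-1-3p at the marked position.
Mir181a-1: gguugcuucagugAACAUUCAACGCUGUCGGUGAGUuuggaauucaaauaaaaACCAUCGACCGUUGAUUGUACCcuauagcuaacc
Mir181a-2: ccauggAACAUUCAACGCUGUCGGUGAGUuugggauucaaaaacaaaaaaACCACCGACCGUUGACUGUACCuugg

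The family lies in 3 clusters of paired genes (GRCm38, the mm10 build of the count table, with GENCODE M21 annotation). Mir181a-1 (chromosome 1, 137966455 to 137966541, plus strand) is followed by Mir181b-1, with 120 nt between their mature arms. Both lie within an intron of the non-coding Gm4258, and Mir181b-1 also overlaps an exon of the lincRNA A430106G13Rik. Mir181a-2 (chromosome 2, 38852735 to 38852810, plus strand) and Mir181b-2, 1038 nt apart, lie on the strand opposite to the nuclear receptor gene Nr6a1, inside one of its introns. Mir181c and Mir181d (chromosome 8, minus strand, 103 nt apart) lie in an intron of Nanos3. The mature sequences of miR-181a-5p and of miR-181b-5p are each made by 2 of these clusters, and the table lists them at the chromosome 2 locus alone. Their counts therefore cannot be split between loci, and with an edit distance of 1 or 2 some reads of one 5p member could have been counted for another.

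Libraries held from 3482540 to 18144016 counts, of which 2225722 to 12377000 were in the microRNA class. Values below are counts of a feature scaled to a common total of the microRNA class (CPM) after TMM adjustment over the 10 libraries. A single read spans a mature microRNA (22 to 24 nt for the members), so counts were not divided by length. The second non-stimulated libraries of wt and of 3'RR-deficient cells stood apart from the first ones in the same direction (r = 0.66 between both replicate differences over 720 features), and they were also the least deep. The log2 difference between replicates rose by 1.07 (wt) and 0.87 (3'RR-deficient) per 10% of GC content over 497 mature microRNAs in non-stimulated cells, against slopes of -0.25 and -0.19 in LPS cells. The main results are given with and without them.

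mmu-miR-181a-5p made up most of the family in every library. In non-stimulated cells its level was 22472 and 43885 CPM in the wt libraries, 29561 and 46255 CPM in the 3'RR-deficient libraries and 18496 CPM in that of Eµ-deficient mice. After LPS it was 6580 and 5453 CPM in wt, 9116 and 8194 CPM in 3'RR-deficient and 8378 CPM in Eµ-deficient cells. The 5 LPS libraries were all below the 5 non-stimulated ones, an order seen in 4.45% of 988 microRNA features. By rank of its counts in the microRNA class it stood between 5th and 16th in non-stimulated libraries and between 21st and 35th in LPS libraries.

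mmu-miR-181b-5p was the second member by level, at 1092 to 2009 CPM in non-stimulated and 974 to 1528 CPM in LPS libraries. mmu-miR-181d-5p followed, at 355 to 677 CPM and 347 to 539 CPM. In each of the 10 libraries miR-181a-5p lay above miR-181b-5p, and miR-181b-5p above miR-181d-5p. mmu-miR-181c-5p ranged from 58.6 to 277 CPM in non-stimulated and from 47.6 to 125 CPM in LPS libraries. The 3p strand of the chromosome 1 gene, mmu-miR-181a-1-3p, ranged from 33.97 to 176 CPM and from 82.1 to 311 CPM. It lay below miR-181c-5p in each of the 5 non-stimulated libraries and above it in each of the 5 LPS libraries, although the ranges of both overlapped between libraries. The 3p strand of the chromosome 2 gene, mmu-miR-181a-2-3p, ranged from 28.0 to 115 CPM and from 12.8 to 35.6 CPM. mmu-miR-181c-3p was the scarcest member, at 2.37 to 18.1 CPM and 4.55 to 13.6 CPM, with only 8 and 17 counts in the 3'RR-deficient and wt second non-stimulated libraries. Levels of different microRNAs also carry the bias of adapter ligation, which these counts cannot show.

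**Figure D1:**
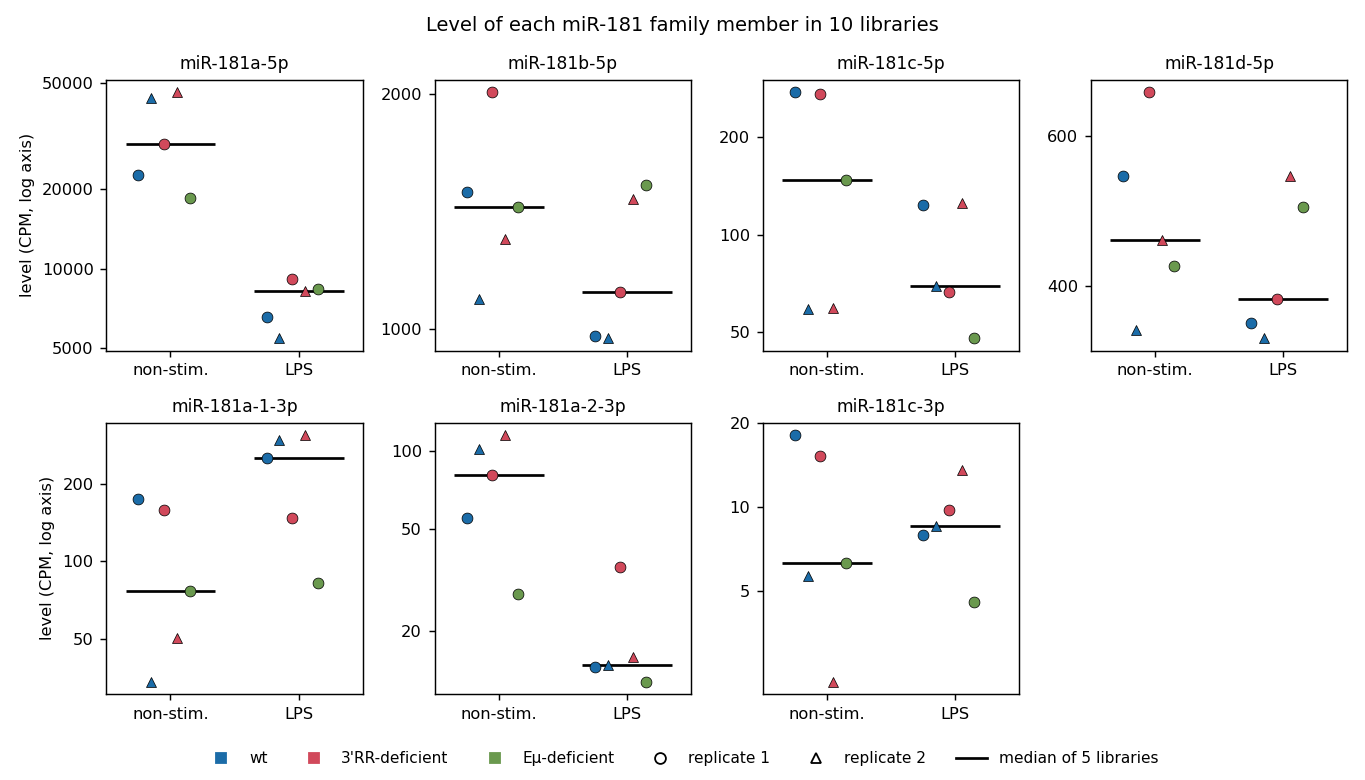
Level in CPM (log axis, a separate scale per panel) of each of the 7 members in the 10 libraries, by culture condition, with colour for genotype, symbol for replicate number and a line at the median of the 5 libraries. miR-181a-5p lies between 18496 and 46255 CPM without stimulation and between 5453 and 9116 CPM after LPS, whereas both conditions overlap for the other 6 members.

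The 7 members together took 1.80% and 6.14% of microRNA counts in the non-stimulated wt libraries, 2.57% and 6.43% in the 3'RR-deficient ones and 2.45% in the Eµ-deficient one. After LPS these shares were 0.964% and 0.570% in wt, 1.14% and 0.748% in 3'RR-deficient and 1.29% in Eµ-deficient cells. Every LPS library was below every non-stimulated library. The Wilson 95% intervals of these shares, which cover counting error only, were narrow beside the distance between replicates (6.11% to 6.17% for the second wt library).

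Within the family, miR-181a-5p held 89.8% to 96.4% of the counts in non-stimulated libraries and 76.1% to 83.8% after LPS. The summed level of the other 6 members was at 1647 to 3212 CPM in non-stimulated and 1712 to 2473 CPM in LPS libraries, which overlap. The 3 listed 3p strands held 0.311% to 0.994% of family counts without stimulation and 0.943% to 4.50% after LPS.

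**Figure D2:**
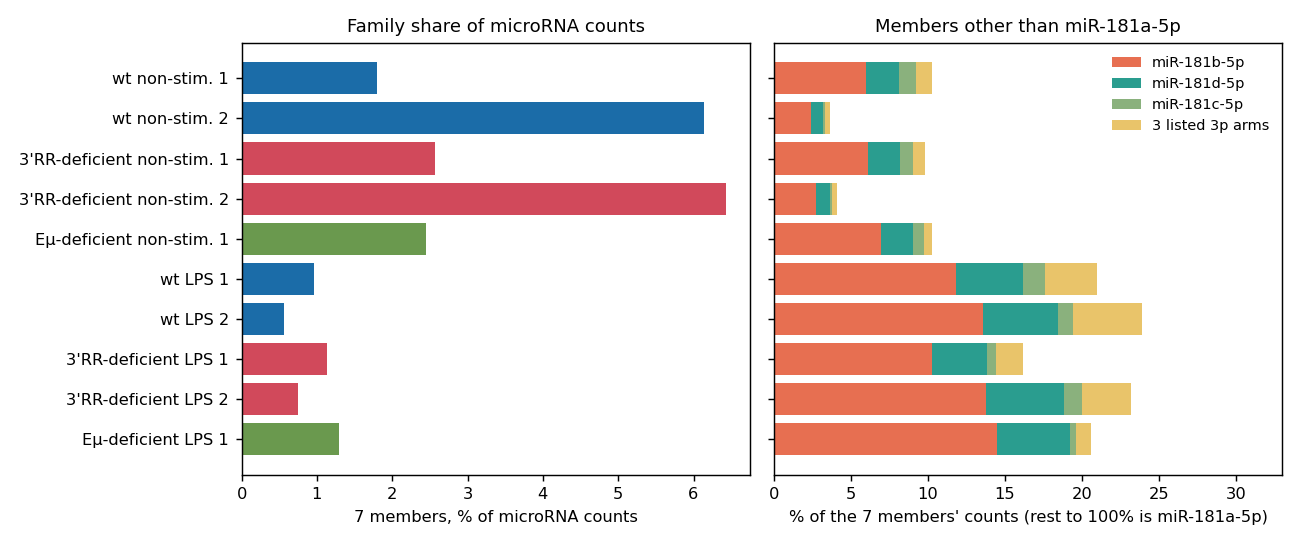
Left, share of the 7 members in the microRNA counts of each library (%); right, share of the 6 members other than miR-181a-5p in the family counts (%), as stacked bars by member. The left bars run from 1.80% to 6.43% in non-stimulated and from 0.570% to 1.29% in LPS libraries, and the right bars are longer in every LPS library than in any non-stimulated one.

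LPS was then compared with no stimulation over wt and 3'RR-deficient cells, 4 libraries against 4, to ask how B-cell activation changed the family. miR-181a-5p fell by 2.31 on the log2 scale (SE 0.45, 95% interval -3.30 to -1.31, edgeR adjusted p = 0.00718), and it was lower in each of the 4 LPS libraries. miR-181a-2-3p, the partner strand from the chromosome 2 hairpin, fell as well. Its levels were 55.1 and 102 CPM (wt) and 80.7 and 115 CPM (3'RR-deficient) without stimulation, and 14.6 and 14.8 CPM (wt) and 35.6 and 15.9 CPM (3'RR-deficient) after LPS. These groups did not overlap, as for 9.82% of microRNA features in that direction, and the log2 fold change was -2.16 (SE 0.49, edgeR adjusted p = 0.0121). The call was lost without wt LPS replicate 1 (-2.11, edgeR adjusted p = 0.0513) or replicate 2 (-2.23, edgeR adjusted p = 0.0534). In Eµ-deficient cells, outside this fit, miR-181a-2-3p stood at 28.0 CPM without and 12.8 CPM with LPS.

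Thus 2 of the 7 members passed the threshold, both lower, where 21.8% of the 720 features tested passed and 8.61% passed as lower. The median log2 fold change was -0.39 over the members and 0.07 over all features.

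The remaining 5 members did not pass. miR-181a-1-3p, the partner strand from the chromosome 1 hairpin, was at 176 and 33.97 CPM (wt) and 158 and 50.03 CPM (3'RR-deficient) without stimulation. After LPS it was at 254 and 299 CPM in wt and at 147.98 and 311 CPM in 3'RR-deficient cells. The fitted log2 fold change was 1.26 (SE 0.56, edgeR adjusted p = 0.130), and the groups overlapped. None of the members had every LPS library above every non-stimulated one in these 8 libraries, an order that 15% of microRNA features showed. The log2 fold changes of the others were -0.39 for miR-181b-5p (95% interval -1.20 to 0.42), -0.32 for miR-181d-5p (-1.14 to 0.50), -0.78 for miR-181c-5p (-2.10 to 0.53) and -0.08 for miR-181c-3p (-1.46 to 1.31), with edgeR adjusted p from 0.378 to 0.935.

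Without both second non-stimulated libraries, chosen for removal after the data were seen, miR-181a-5p was also lower, with a log2 fold change of -1.91 (edgeR adjusted p = 0.000622). miR-181a-2-3p then gave -1.83 (edgeR adjusted p = 0.00485). miR-181c-5p passed as well in that fit, at -1.61 (edgeR adjusted p = 0.00504), so that 3 of 7 members were called, where 26.3% of 824 features were. This member was at 277 and 272 CPM in the first non-stimulated libraries of wt and 3'RR-deficient cells but at 58.6 and 59.2 CPM in the second ones. miR-181b-5p was at -0.71, miR-181d-5p at -0.67 and miR-181c-3p at -0.85 on the log2 scale, against -0.08 for miR-181c-3p in the full fit. miR-181a-1-3p moved from 1.26 to 0.49. Its high fold change in the full fit rested on the second non-stimulated libraries, where it was lowest. With all 8 libraries and a replicate block within culture condition, miR-181a-5p was at -1.57, miR-181a-2-3p at -1.33 and miR-181c-5p at -1.37. These 3 members were called there too, as were 184 of 720 features.

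In fits with one mean per group, the LPS difference of miR-181a-5p was -2.45 within wt (SE 0.74, edgeR adjusted p = 0.110) and -2.16 within 3'RR-deficient cells (SE 0.73, edgeR adjusted p = 0.155), with 2 libraries against 2 in each. None of the members passed there, where 0.694% and 0.972% of features did. At an unadjusted p under 0.05, 2 members passed in each genotype, miR-181a-5p and miR-181a-2-3p, as did 21.7% of features in wt and 19.3% in 3'RR-deficient cells. With the DESeq2 Wald test 2 members were called in wt, where 14.3% of features were, and 1 in 3'RR-deficient cells, where 13.5% were. Without both second non-stimulated libraries miR-181a-5p passed in either genotype, at -1.81 in wt (edgeR adjusted p = 0.0411) and -1.998 in 3'RR-deficient cells (edgeR adjusted p = 0.0427), with 9.59% and 6.07% of features called. Each of these tests had 1 non-stimulated library, assumed to vary like the other groups of the fit, which supply the spread. Eµ-deficient cells, which entered no such test, had 18496 CPM without and 8378 CPM with LPS.

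**Figure D3:**
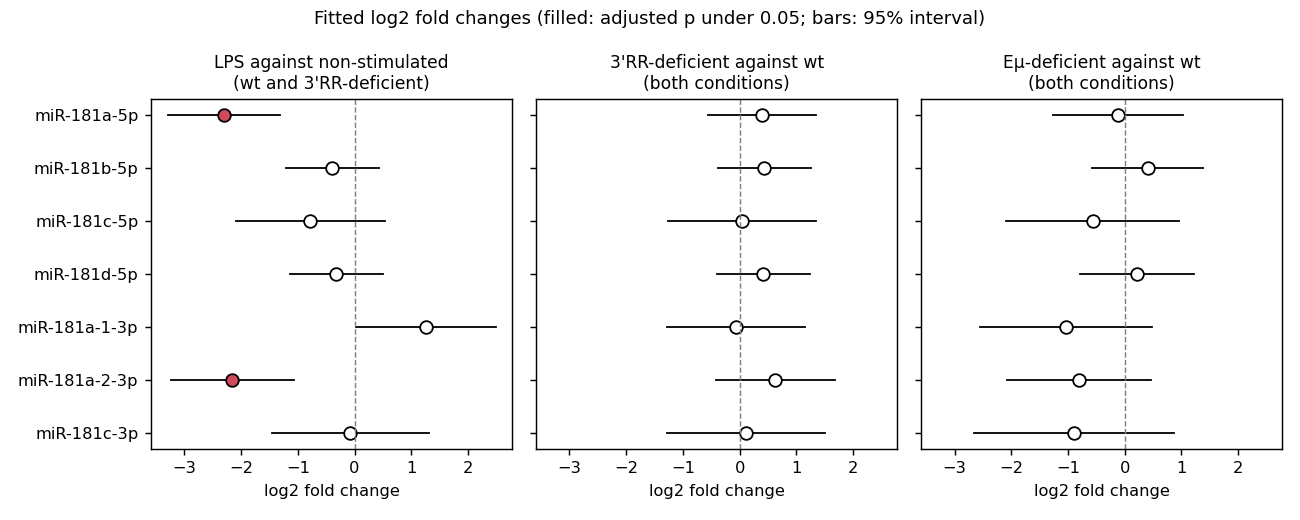
Fitted log2 fold change of each member (points, filled where the edgeR adjusted p is under 0.05) with its 95% interval (bars) for LPS against no stimulation, 3'RR-deficient against wt and Eµ-deficient against wt. Only miR-181a-5p (-2.31) and miR-181a-2-3p (-2.16) are filled, both in the first panel, and all intervals of both genotype panels include 0.

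Summed by cell type, the erythroid, myeloid, and endothelial and stromal markers had lower medians in LPS libraries, but their ranges overlapped. The 3 erythroid markers (miR-451a, miR-144-3p, miR-486a-5p), summed, lay between 2500 and 7919 CPM in non-stimulated and between 138 and 3570 CPM in LPS libraries. The myeloid marker miR-223-3p ranged from 463 to 4939 CPM and from 76.2 to 496 CPM. The 3 endothelial and stromal markers together ranged from 191 to 1031 CPM and from 67.2 to 841 CPM, with miR-145a-5p without counts in 2 LPS libraries. The hepatocyte marker miR-122-5p was at most 5.62 CPM. Among single markers, miR-144-3p ranged from 2.66 to 119 CPM and from 10.4 to 57.2 CPM. For miR-126a-3p the ranges were 23.6 to 119 CPM and 13.7 to 62.6 CPM, so both markers overlapped between conditions. The 4 lymphocyte markers (miR-150-5p, miR-155-5p, miR-142a-3p, miR-142a-5p) had summed levels of 64177 to 233212 CPM and 81390 to 147805 CPM, with no marker at 0. Within that sum miR-150-5p fell and miR-155-5p rose with LPS, as given below. In the second non-stimulated libraries, where miR-181a-5p was highest, the erythroid sum was 2500 (wt) and 6581 CPM (3'RR-deficient), against 4679 and 2861 CPM in the first ones. miR-451a was lower there, at 205 and 367 CPM against 3719 and 1754 CPM, whereas miR-486a-5p was higher, at 2292 and 6202 CPM against 841 and 1078 CPM. The part of other cells in the LPS difference was not tested. In bulk RNA, fewer cells of a type and less RNA per cell cannot be told apart.

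Ratios between members within one library do not depend on the scaling of libraries. They were compared over all 10 libraries with an exact two-sided permutation test within genotype, with 72 regroupings and hence a smallest possible p of 0.0278, and the adjustment was over 4 ratios.

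The ratio of miR-181a-5p to miR-181b-5p, which both come from the clusters on chromosomes 1 and 2, was 3.91 and 5.33 (log2) in wt, 3.88 and 5.15 in 3'RR-deficient and 3.69 in Eµ-deficient non-stimulated cells. After LPS it was 2.75 and 2.49 in wt, 3.03 and 2.48 in 3'RR-deficient and 2.46 in Eµ-deficient cells. Every LPS library was lower. The mean went from 4.39 ± 0.78 to 2.64 ± 0.25 (SD, n = 5), a difference of -1.75 (exact permutation p = 0.0278, adjusted p = 0.0370).

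The ratio of the 3p strands of both miR-181a genes, miR-181a-1-3p to miR-181a-2-3p, was 1.67 and -1.58 (log2) in wt, 0.97 and -1.20 in 3'RR-deficient and 1.45 in Eµ-deficient non-stimulated cells. After LPS it was 4.11 and 4.33 in wt, 2.05 and 4.29 in 3'RR-deficient and 2.68 in Eµ-deficient cells. On the linear scale the chromosome 1 strand had 0.334 to 3.18 times the counts of the chromosome 2 strand without stimulation and 4.15 to 20.2 times with LPS. The groups did not overlap, and the mean rose from 0.26 ± 1.54 to 3.49 ± 1.06 (SD, n = 5), by 3.23 (exact permutation p = 0.0278, adjusted p = 0.0370).

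The ratio of miR-181a-5p to the sum of both its 3p strands fell from 7.50 ± 0.74 to 5.10 ± 0.94 on the log2 scale (SD, n = 5), by 2.40 (exact permutation p = 0.0278, adjusted p = 0.0370), again with every LPS library lower. In linear terms there were 97.4 to 323 counts of the 5p strand per 3p count in non-stimulated and 17.4 to 88.3 in LPS libraries. Against the chromosome 2 partner alone, the 5p strand had 366 to 660 times the counts without stimulation and 255 to 653 times after LPS, ranges that overlap. Against the chromosome 1 partner alone it had 128 to 1286 times the counts without stimulation and 18.2 to 102 times after LPS, ranges that do not. These last 2 ratios were looked at after the others and were not tested.

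The ratio of miR-181c-5p to miR-181d-5p, neighbours in the chromosome 8 cluster, was -1.87 ± 0.85 without and -2.38 ± 0.67 with LPS (log2, SD, n = 5), a difference of -0.51 (exact permutation p = 0.417, adjusted p = 0.417). The second wt and 3'RR-deficient non-stimulated libraries, at -2.59 and -2.93, lay below the first ones, at -0.96 and -1.32. The ratio of miR-181b-5p to miR-181d-5p, of which miR-181d-5p comes from chromosome 8 alone, was at 2.77 to 3.39 times without and 2.71 to 3.08 times with LPS. It was not tested.

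Without both second non-stimulated libraries the differences were -1.19 for miR-181a-5p to miR-181b-5p and 2.13 for the chromosome 1 to the chromosome 2 strand. For the 5p strand to both 3p strands the difference was -1.91. The adjusted permutation p was 0.0741 for each, but too few regroupings remained for any value under 0.05, so the threshold could not be reached.

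**Figure D4:**
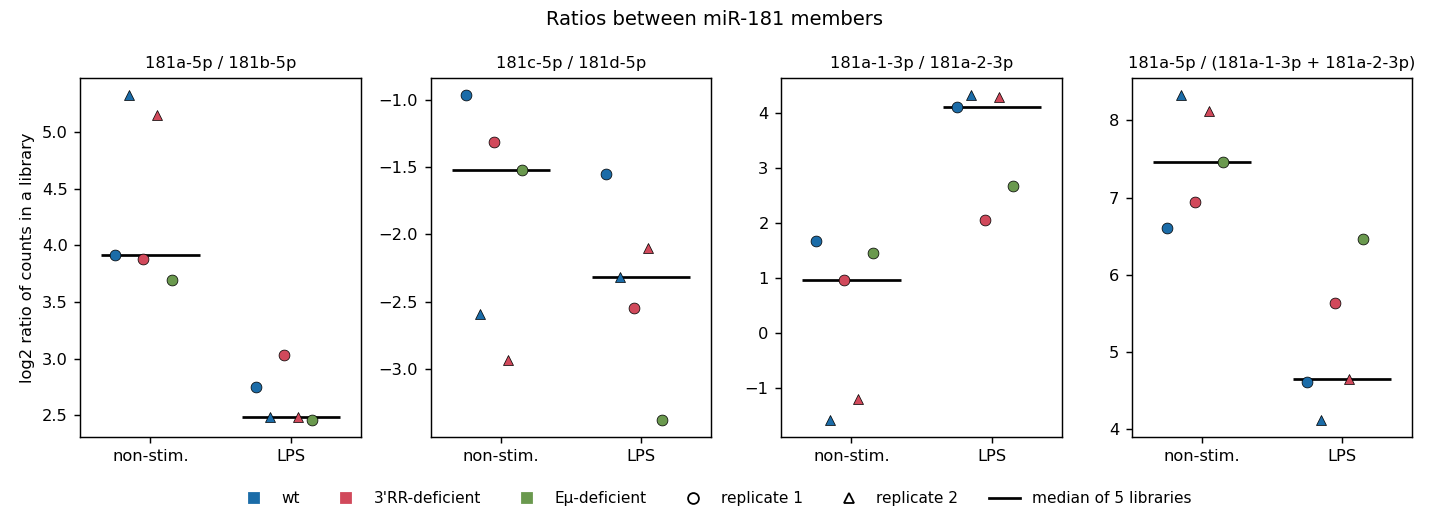
Log2 ratio of counts within a library for the 4 pairs tested, by culture condition, with colour for genotype, symbol for replicate number and a line at the median of the 5 libraries. The ratio of miR-181a-5p to miR-181b-5p spans 3.69 to 5.33 without and 2.46 to 3.03 with LPS, and the ratio of both miR-181a 3p strands spans -1.58 to 1.67 and 2.05 to 4.33.

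Other products of the same genes are given as a description. In all 5 LPS libraries miR-181b-1-3p had more counts than miR-181a-2-3p, and miR-181b-2-3p more than miR-181c-3p. miR-181b-1-3p, from the chromosome 1 cluster, was at 10.3 and 0.333 CPM (wt), 8.06 and 3.55 CPM (3'RR-deficient) and 4.45 CPM (Eµ-deficient) without stimulation. After LPS it was at 27.3 and 30.0 CPM, 35.8 and 48.5 CPM and 22.7 CPM. It rose by 2.62 on the log2 scale over wt and 3'RR-deficient cells (SE 0.71, edgeR adjusted p = 0.0271), or by 1.83 without both second non-stimulated libraries (edgeR adjusted p = 0.00607), and its LPS libraries all lay above the non-stimulated ones, as for 11.2% of features. Its counterpart on chromosome 2, miR-181b-2-3p, ranged from 0 to 5.28 CPM and from 11.7 to 22.1 CPM, also without overlap (edgeR adjusted p = 0.0723). The hairpin transcript of Mir181b-1 had 1 and 0 counts (wt), 0 and 0 counts (3'RR-deficient) and 13 counts (Eµ-deficient) without stimulation. After LPS it had 57 and 70, 22 and 135, and 94 counts. No test of it is given, since it passed the filter on low counts through its LPS libraries alone. The hairpin transcript of Mir181a-1, from the same cluster, had 4 and 0 (wt), 2 and 0 (3'RR-deficient) and 10 counts (Eµ-deficient) without stimulation and 7 and 4, 2 and 16, and 22 counts after LPS. The hairpin transcript of Mir181a-2 had 1 count in the 4 wt and 3'RR-deficient libraries together in either condition, and 10 counts in each Eµ-deficient library.

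Genotype was compared next, to ask whether loss of either heavy chain enhancer altered the family. Between 3'RR-deficient and wt cells over both conditions, none of the 7 members passed (0.139% of features did), and 0 members had an unadjusted p under 0.05, against 2.92% of features. For miR-181a-5p the log2 fold change came to 0.40 (95% interval -0.55 to 1.34), that of miR-181b-5p 0.44 (-0.38 to 1.25), that of miR-181d-5p 0.42 (-0.40 to 1.23) and that of miR-181a-2-3p 0.63 (-0.41 to 1.68). miR-181c-5p was at 0.05 (-1.26 to 1.35), miR-181a-1-3p at -0.06 (-1.28 to 1.15) and miR-181c-3p at 0.12 (-1.27 to 1.504), and each had an edgeR adjusted p of 0.997. These last 3 changed sign under other settings. Without both second non-stimulated libraries miR-181a-5p was at 0.64 (edgeR adjusted p = 0.697), miR-181c-5p at 0.11, miR-181a-1-3p at -0.10 and miR-181c-3p at 0.39, and 0 members and 2 of 824 features were called. The intervals leave room for changes of over 2-fold in either direction for 3 of the members and upwards for the others.

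After LPS the pair of 3'RR-deficient libraries lay above the pair of wt libraries for miR-181a-5p, with a log2 fold change of 0.54 (95% interval -1.02 to 2.10, edgeR adjusted p = 1), in a comparison in which 0% of features passed. In non-stimulated cells the difference was 0.25 (95% interval -1.30 to 1.81, edgeR adjusted p = 1), and 0% of features passed. It was 0.77 there without both second non-stimulated libraries, which leaves 1 library of each genotype, assumed to vary like the other groups. When each library was left out it ranged from -0.35 to 0.89, and it was negative without the first non-stimulated wt library. The LPS response of miR-181a-5p differed between both genotypes by 0.29 on the log2 scale (95% interval -1.91 to 2.49, edgeR adjusted p = 1.00), with 0% of features called, and by -0.19 without both second non-stimulated libraries. DESeq2 called 0 members in each of these comparisons too, and at most 2 of 720 features.

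Eµ-deficient cells, with 1 library per condition, were compared with wt by an additive fit of all 10 libraries. None of the 7 members was called, against 1.62% of 988 features, and 0 had an unadjusted p under 0.05, against 11.4% of features. The log2 fold changes were -0.12 for miR-181a-5p (95% interval -1.27 to 1.03), 0.41 for miR-181b-5p (-0.58 to 1.39), 0.22 for miR-181d-5p (-0.79 to 1.22) and -0.57 for miR-181c-5p (-2.09 to 0.96). The 3p strands were at -1.04 for miR-181a-1-3p (-2.56 to 0.48), -0.81 for miR-181a-2-3p (-2.08 to 0.46) and -0.89 for miR-181c-3p (-2.66 to 0.87), with edgeR adjusted p from 0.602 to 0.943 over the 7. Leaving out each library in turn moved the 3p strands from -1.70 to -0.27, from -1.10 to -0.35 and from -1.11 to -0.15, in that order. With a replicate block within culture condition miR-181a-1-3p was called, at -1.25 (edgeR adjusted p = 0.0140), as given below with the share of features. Without both second non-stimulated libraries miR-181a-5p was at 0.48, miR-181b-5p at 0.67, miR-181d-5p at 0.46, miR-181a-2-3p at -0.20 and miR-181a-1-3p at -1.16 (lowest edgeR adjusted p 0.0712), and 0 members and 71 of 955 features were called. The value of miR-181a-5p was 0.11 with scaling by total counts, which moved the median of all features by 0.38. With LPS, miR-181a-1-3p was at 82.1 CPM in the Eµ-deficient library, against 254 and 299 CPM in wt and 147.98 and 311 CPM in 3'RR-deficient cells. Among LPS libraries, that of Eµ-deficient mice also had the highest level of the erythroid markers, 3570 CPM summed, and of miR-223-3p, 496 CPM. The endothelial and stromal markers summed to 841 CPM there, against 67.2 to 110.02 CPM in the other 4. Of that sum miR-143-3p made up 807 CPM and miR-145a-5p 20.2 CPM. By contrast, miR-126a-3p of the same list was lowest in that library, at 13.7 CPM against 36.9 to 62.6 CPM. The part of other cells in this difference was not tested.

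The 5 mature microRNAs outside the family whose log2 CPM followed miR-181a-5p most closely over the 10 libraries were picked from 791 by Pearson's r, and the 10 points share library composition and the LPS contrast. They were miR-150-5p, a lymphocyte microRNA (r = 0.98), miR-342-3p (r = 0.96), miR-1843b-3p (r = 0.95), miR-744-5p (r = 0.95) and miR-1843a-3p (r = 0.95). miR-150-5p lay between 21579 and 56331 CPM in non-stimulated and between 7077 and 10108 CPM in LPS libraries. Within the family, miR-181a-5p went with miR-181a-2-3p (r = 0.94) and ran opposite to miR-181a-1-3p (r = -0.75), and miR-181b-5p went with miR-181d-5p (r = 0.95).

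A list of 9 other microRNAs known from lymphocytes was set beside the family. With LPS 4 of them rose and 1 fell past the threshold, where 13.2% of all features rose and 8.61% fell. miR-155-5p, which is induced on B-cell activation, rose by 2.76 on the log2 scale (edgeR adjusted p = 0.00261), and miR-17-5p, of the miR-17-92 cluster that promotes proliferation, by 3.14 (edgeR adjusted p = 0.00967). miR-34a-5p (2.41, edgeR adjusted p = 0.00408) and miR-148a-3p (3.59, edgeR adjusted p = 0.00994) rose too. miR-150-5p, which targets Myb in lymphocytes, fell by 2.45 (edgeR adjusted p = 0.00392). The others did not pass. Of these miR-92a-3p, from the same cluster as miR-17-5p, was at -0.05 (edgeR adjusted p = 0.945). miR-146a-5p was at 1.32 (edgeR adjusted p = 0.102), miR-21a-5p at 2.22 (edgeR adjusted p = 0.0723) and miR-142a-3p at 0.92 (edgeR adjusted p = 0.538). None of the 9 passed for 3'RR-deficient or for Eµ-deficient against wt.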

How the data were processed

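Small RNA of 10 pools of CD43- splenic B-cells was ligated, amplified in 17 PCR cycles and sequenced in 75 nt reads. The deposited table holds raw counts per small RNA feature, which the authors did not normalize. The submitters' processing notes name cutadapt 1.2.1, Bowtie2 and mm10. The counting program, the annotation release and the treatment of reads with several matches are not given in the sources used here, and the paper names no test for these counts. PCR reads carried no molecular identifier in the counts, so Wilson intervals of shares cover counting error only. Intervals of fold changes come from the edgeR fit and reflect the spread between libraries.

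The deposited table held 1 row of another species, which is not a member of the family. The microRNA class was analysed with edgeR 4.0.16 and limma 3.58.1 in R 4.3.3, with TMM scaling, filterByExpr, the two-sided quasi-likelihood F-test and p-values adjusted by Benjamini-Hochberg across the whole table (720 features in 8 wt and 3'RR-deficient libraries, 988 in 10), with a threshold of 0.05. The biological coefficient of variation was 72.4%. Comparisons with wt share the wt libraries. Ratios used raw counts with 0.5 added. Alternatives were other scalings, filters, features, sets of libraries, the DESeq2 1.42.0 Wald test, taking out the GC trend by loess (span 0.75; GC was known for 81.9% of the 607 mature features tested), a replicate block, 5 in place of 0.5 counts, and leaving out each library. The code was tested on simulated data. Named were all 7 members, other arms and hairpins of their genes, the 5 microRNAs most like miR-181a-5p, a list of 9 lymphocyte microRNAs and the cell type markers. The members and lists were chosen with earlier results of these data known.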

Additional observations from a re-analysis of the deposited data

Results flagged for a closer look

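The change of miR-181b-5p with LPS had opposite signs in wt and Eµ-deficient cells, which is why it is listed. In wt cells it was at 1496 and 1092 CPM without stimulation and at 981 and 974 CPM with LPS, both LPS libraries lower. That order depended on the TMM adjustment. By share of raw microRNA counts the first wt LPS library (4709 of 4145232) lay above the first non-stimulated wt library (13321 of 12377000). In Eµ-deficient cells it was at 1431 CPM without and 1528 CPM with LPS, 1 library each. The responses differed by 0.481 on the log2 scale. This difference was not tested, since the Eµ-deficient cells have a single library per condition.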

How the results depend on the processing

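With LPS over both genotypes, miR-181a-5p stayed called under every alternative run, from -2.76 to -1.43 on the log2 scale, and from -2.66 to -2.02 when each library was left out. The number of members called was 2 to 3 there, the third being miR-181c-5p without both second non-stimulated libraries, with a replicate block within culture condition (-1.37, edgeR adjusted p = 0.0162) and with that block and the GC trend removed (-1.18, edgeR adjusted p = 0.0155). It was 1 to 2 when each library was left out, with miR-181a-2-3p, -2.60 to -1.33 over the other alternatives (-1.33 with the block within culture condition), lost without wt LPS replicate 1 (-2.11) or 2 (-2.23; highest edgeR adjusted p 0.0534). Within wt, where 0 were called, there were 2 with DESeq2 (103 of 720 features called), 1 with a replicate block within culture condition (99 of 720), 1 with the GC trend removed (45 of 497), 2 with both of these (83 of 497), 1 without both second non-stimulated libraries (79 of 824), and 0 to 2 when each library was left out (2 without the first non-stimulated library of wt, 64 of 773, or of 3'RR-deficient cells, 71 of 776), against 5 of 720 features otherwise. Where an arm had 1 library left, it was assumed to vary like the other groups, which supply the spread. Within 3'RR-deficient cells 1 was called with DESeq2 (97 of 720 features), with the replicate block within culture condition (90 of 720), with that block and the GC trend removed (69 of 497), and without both second non-stimulated libraries (50 of 824), against 7 of 720 otherwise. For Eµ-deficient against wt, 1 was called with the replicate block within culture condition (miR-181a-1-3p, -1.25, edgeR adjusted p = 0.0140), where 105 of 988 features were called. Replicate numbers did not pair the libraries (correlation of replicate differences 0.66 between non-stimulated groups, 0.11 between LPS groups, -0.29 to -0.06 otherwise). For the ratios of miR-181a-5p to miR-181b-5p, of both miR-181a 3p strands and of the 5p to both 3p strands, the differences were -1.88, 3.73 and -2.75 with wt and 3'RR-deficient libraries alone (adjusted permutation p = 0.0741), -1.75, 3.23 and -2.40 in same-numbered pairs (replicate block, adjusted permutation p = 0.0833) and -1.19, 2.13 and -1.91 without both second non-stimulated libraries. Leaving out each library gave -1.93 to -1.52, 2.77 to 3.59 and -2.74 to -2.16, past the threshold in all but 4 cases each. These designs have fewer regroupings. No adjusted p under 0.05 was possible with wt and 3'RR-deficient libraries alone, in same-numbered pairs or without both second non-stimulated libraries. Sign changes were among values that passed no threshold, and their cause was not tested. miR-181c-3p with LPS ranged from -0.93 (GC trend removed and replicate block within culture condition) to 0.22 over the alternatives. It was 0.015 with a 10 CPM filter, 0.22 with the replicate block, 0.17 without the GC trend and -0.55 to 0.28 when each library was left out. For 3'RR-deficient against wt, miR-181c-5p was -0.055 with DESeq2 size factors, -0.13 with total counts, -0.044 with a 10 CPM filter, -0.055 with DESeq2, -0.045 with mature microRNAs alone and -0.49 to 0.45 by library left out. miR-181c-3p was -0.0022 with DESeq2 size factors, -0.065 with total counts, -0.0015 with DESeq2, -0.11 with the block and GC trend removed and -0.34 to 0.56 by library left out. miR-181a-1-3p was 0.0016 with the replicate block and -0.48 to 0.33 by library left out. The 3'RR effect on miR-181a-5p without stimulation ranged from -0.35 to 0.89 by library left out, and the difference of LPS responses was -0.19 without both second non-stimulated libraries and -0.31 to 0.91 by library left out. For Eµ-deficient against wt, miR-181a-5p was 0.11 with total counts, 0.095 with a 10 CPM filter, 0.092 with all feature classes, 0.066 with mature microRNAs alone, 0.052 with the replicate block, 0.018 with it within culture condition, 0.16 without the GC trend, 0.53 with both, 0.48 without both second non-stimulated libraries and -0.50 to 0.37 by library left out, and miR-181c-5p was -1.04 to 0.14 by library left out. The fewest counts of a member in a library, 8 of miR-181c-3p, limit its precision.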
